A study of Mus musculus with 32 samples.

Results

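The Sall family comprises the 4 mouse homologues of the *Drosophila* gene *spalt*, *Sall1*, *Sall2*, *Sall3* and *Sall4*, which encode transcription factors with C2H2 zinc fingers. They were taken from the gene count table by symbol, so that the family is 4 of 51826 annotated genes, and all 4 are among the 18892 genes with enough counts to be tested. SALL1 and SALL4 carry a short N-terminal motif that recruits the nucleosome remodelling and deacetylase complex NuRD. SALL4 is best known as a partner of OCT4 and NANOG that stabilizes embryonic stem cells (ESCs), and SALL1 is known to occupy many of the same sites. SALL2 is the most divergent member, with different zinc fingers, and is known in neural development and as a growth-restraining factor. SALL3 is known in limb, neuronal and cardiac development.

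RNA was sequenced from ESCs of the line RGd2, which carries a destabilized GFP reporter at *Rex1*, and from CRISPR/Cas9 mutants of it that lack transcription factors implicated in leaving naive pluripotency. The 15 RGd2 libraries cover 5 cultures: 2i, the pair of MEK and GSK3 inhibitors that holds cells in the naive state; 2i for 5 passages (2i-p5); the GSK3 inhibitor CHIR99021 alone for 2 passages (CHp2); and serum-free medium N2B27 for 16 h (N16h) or 72 h (N72h) after withdrawal. *Etv5*-KO and *Rbpj*-KO lines were profiled in 2i and at N16h, *Etv5* and *Rbpj* double mutants (ER-dKO) after 5 passages in CHIR99021 (CHp5), and mutants of *Etv5*, *Tcf3* and *Rbpj* (ETR-tKO) after 5 passages in N2B27 (Np5). Cells for the exit experiments were maintained in CHIR99021 and LIF and moved to 2i shortly before assay, so that RGd2 2i and RGd2 2i-p5 are different cultures of the same genotype. By the labels each condition has 3 libraries, except *Etv5*-KO N16h, which has 2. The methods of the study name RGd2 rather than *Etv5*-KO as the smaller group at that time, and the labels were followed here. In each RGd2 culture, 2 libraries come from the parental line and 1 from a clonal derivative, whereas each mutant library of a condition comes from a separate clone. The labels name no separate cultures behind the parental pair, so the p-values measure the spread between these libraries, part of which may be technical. The ETR-tKO labels (Tc1)ERc2 and (Tc1)ERc10 share the prefix Tc1. Those clones may therefore come from a common starting clone and be less independent than separate ones.

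Libraries held 5986857 to 71439411 counts on genes, and the shallowest was RGd2 2i replicate 33. No pair of replicates agreed within counting noise, since chi-square per gene was at least 3.39. The targeted genes were lower where they had been deleted: *Etv5* was at 2241 ± 146 (SD, n = 3) normalized counts in *Etv5*-KO 2i against 15475 ± 1338 (SD, n = 3) in RGd2 2i, *Rbpj* at 1097 ± 139 (SD, n = 3) in *Rbpj*-KO 2i against 4469 ± 571 (SD, n = 3), and *Tcf7l1*, the gene of TCF3, at 85.4 ± 49.2 (SD, n = 3) in ETR-tKO Np5 against 516 ± 67.2 (SD, n = 3) in RGd2 2i-p5. In ETR-tKO Np5 *Rbpj* was at 2063 ± 437 (SD, n = 3) against 3023 ± 314 (SD, n = 3) in RGd2 2i-p5, a smaller difference, and *Etv5* at 1834 ± 717 (SD, n = 3) against 10959.5 ± 803 (SD, n = 3). *Rbpj* varied between the ER-dKO clones, at 1978 ± 1311 (SD, n = 3) against 4011 ± 285 (SD, n = 3) in RGd2 CHp2. The deletions lie between paired guide RNAs in different exons, and whether the remaining counts come from exons outside them was not tested. Normalized counts are read counts scaled by spike-in RNA added to each sample. This keeps differences in gene RNA relative to the spike-in, which scaling to the genes themselves (TMM) removes. The methods of the study do not state whether the spike-in was added per cell or per amount of RNA. Such differences therefore cannot be read as RNA per cell. FPKM, used wherever genes are compared with each other, is per length and per total gene counts.

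*Sall1* (ENSMUSG00000031665.7) lies on the minus strand of GRCm38/mm10 at chr8:89027235-89044162, with 4 merged exons of 5265 bases in all. *Sall2* (ENSMUSG00000049532.10) is at chr14:52311172-52328762 on the minus strand, with 3 merged exons of 5433 bases. *Sall4* (ENSMUSG00000027547.17) is at chr2:168748332-168767943 on the minus strand, with 7 merged exons of 5536 bases. An antisense gene shares 526 exonic bases with *Sall4*, but counting was by strand and that gene had at most 25 counts in any library.

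The promoter of *Sall1* and a site at that of *Sall2* are shown because each holds a short core bound by the family of a factor that was deleted in this series. RefSeq (GRCm38.p6) lists 3 start windows for *Sall1* and 2 for *Sall2*. The 250 bases before each start were searched on both strands for exact strings. These were CCGGAA, a form of the core that ETS factors such as ETV5 bind, TGGGAA for RBPJ, and CTTTGA for TCF and LEF factors. Other forms of these cores were not searched. Of all 32851 promoter windows searched, 12% held the ETS core, 21.6% the RBPJ core and 13.8% the TCF/LEF core. The *Sall1* window at chr8:89044163-89044412 holds the TCF/LEF core once, as TCAAAG on the strand of the gene and 153 bases before the start. The *Sall2* window at chr14:52328671-52328920 holds the RBPJ core once, as TTCCCA and 72 bases before that RefSeq start. The 30 bases around it are at chr14:52328725-52328754. The *Sall2* gene model used for counting reaches to chr14:52328762, so these 30 bases lie inside that model rather than before it. The other 3 windows hold none of the searched strings, and a match describes the letters only. Lack of a match does not mean that a factor is not bound nearby. The paper lists *Sall1* among genes near ETV5 peaks whose RNA was lower in *Etv5*-KO cells in 2i. Capitals mark the cores, and each sequence is written 5′ to 3′ on the minus strand.
Sall1 promoter: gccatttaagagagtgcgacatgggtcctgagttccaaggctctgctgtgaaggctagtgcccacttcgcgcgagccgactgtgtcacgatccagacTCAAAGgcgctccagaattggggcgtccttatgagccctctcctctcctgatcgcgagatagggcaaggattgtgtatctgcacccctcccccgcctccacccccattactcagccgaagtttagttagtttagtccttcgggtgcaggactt
Sall2 site: aatctttacataTTCCCAttttcatctggc

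*Sall4* was the most abundant member in all 11 conditions, at a mean of 49.4 FPKM in RGd2 CHp2 to 105.8 FPKM in *Etv5*-KO N16h, followed by *Sall1* at 7.96 to 47.6 FPKM. *Sall3* ranged from 0.104 FPKM in RGd2 N72h to 14.5 FPKM in RGd2 2i, and *Sall2* from 1.71 FPKM in ER-dKO CHp5 to 23.1 FPKM in RGd2 N72h. The summed FPKM of the family was lowest in RGd2 CHp2, at 67.6, and highest in *Etv5*-KO N16h, at 168.3. *Sall4* made up 59.0% ± 1.92 (SD, n = 3) of that sum in RGd2 2i and 50.2% ± 1.30 (SD, n = 3) in RGd2 N72h. *Sall1* made up 27.5% ± 2.26 (SD, n = 3) and 28.2% ± 1.01 (SD, n = 3) in the same conditions. The share of *Sall2* was 1.87% ± 0.323 (SD, n = 3) in RGd2 2i and 21.5% ± 0.326 (SD, n = 3) in RGd2 N72h, and that of *Sall3* was 11.6% ± 0.732 (SD, n = 3) and 0.0969% ± 0.0206 (SD, n = 3). The family thus held *Sall3* without much *Sall2* in 2i, and *Sall2* almost without *Sall3* at N72h.

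**Figure D1:**
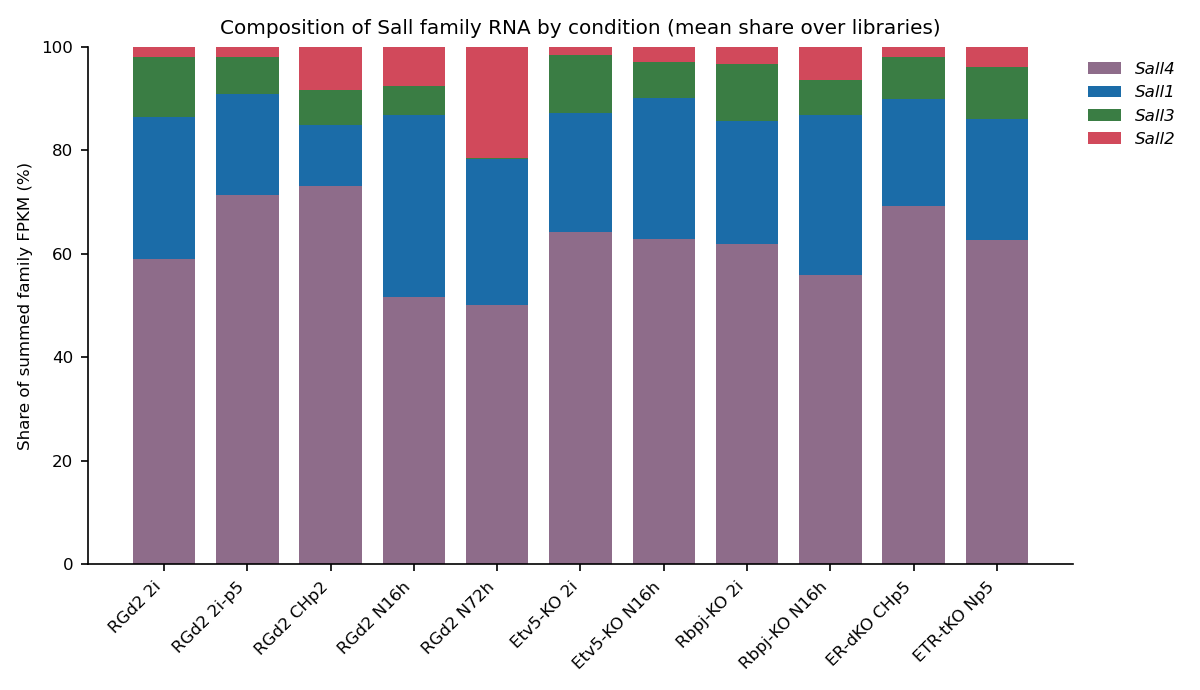
Share of the summed Sall family FPKM (%, vertical axis from 0 to 100) taken by each member in the 11 conditions, as means over libraries in stacked bars. *Sall4* is the largest block throughout, *Sall2* reaches 21.5% in RGd2 N72h, and *Sall3* is too small to see there (0.0969%).

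In order of normalized count, *Sall1* was highest in *Etv5*-KO N16h (6808 ± 686, SD, n = 2), then RGd2 N16h, *Rbpj*-KO N16h and RGd2 2i, and lowest in RGd2 CHp2 (1053 ± 164, SD, n = 3). Its last 4 conditions, *Etv5*-KO 2i, ER-dKO CHp5, RGd2 2i-p5 and RGd2 CHp2, each differed from the next by more than the sum of their SDs, with no overlap of libraries. Above them, no neighbours differed by that much. *Sall2* had 3 such steps apart from its top one: RGd2 N72h (2978 ± 211, SD, n = 3) stood above RGd2 N16h, *Rbpj*-KO N16h above RGd2 CHp2, *Rbpj*-KO 2i above RGd2 2i, and RGd2 2i above ER-dKO CHp5. Its 3 lowest conditions, ER-dKO CHp5, *Etv5*-KO 2i and RGd2 2i-p5, overlapped. *Sall3* was highest in RGd2 2i (2777 ± 218, SD, n = 3) and did not step down beyond the spread until *Rbpj*-KO N16h, which stood below *Etv5*-KO 2i. RGd2 2i-p5, RGd2 CHp2 and RGd2 N72h formed the bottom of its order, each apart from the next. *Sall4* had 1 condition well apart at the top, *Etv5*-KO N16h (16440 ± 1059, SD, n = 2), then 7 conditions from RGd2 2i to ER-dKO CHp5 whose neighbours overlapped, then RGd2 2i-p5 apart from both sides, and RGd2 N72h and RGd2 CHp2 at the bottom, which overlapped each other.

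**Figure D2:**
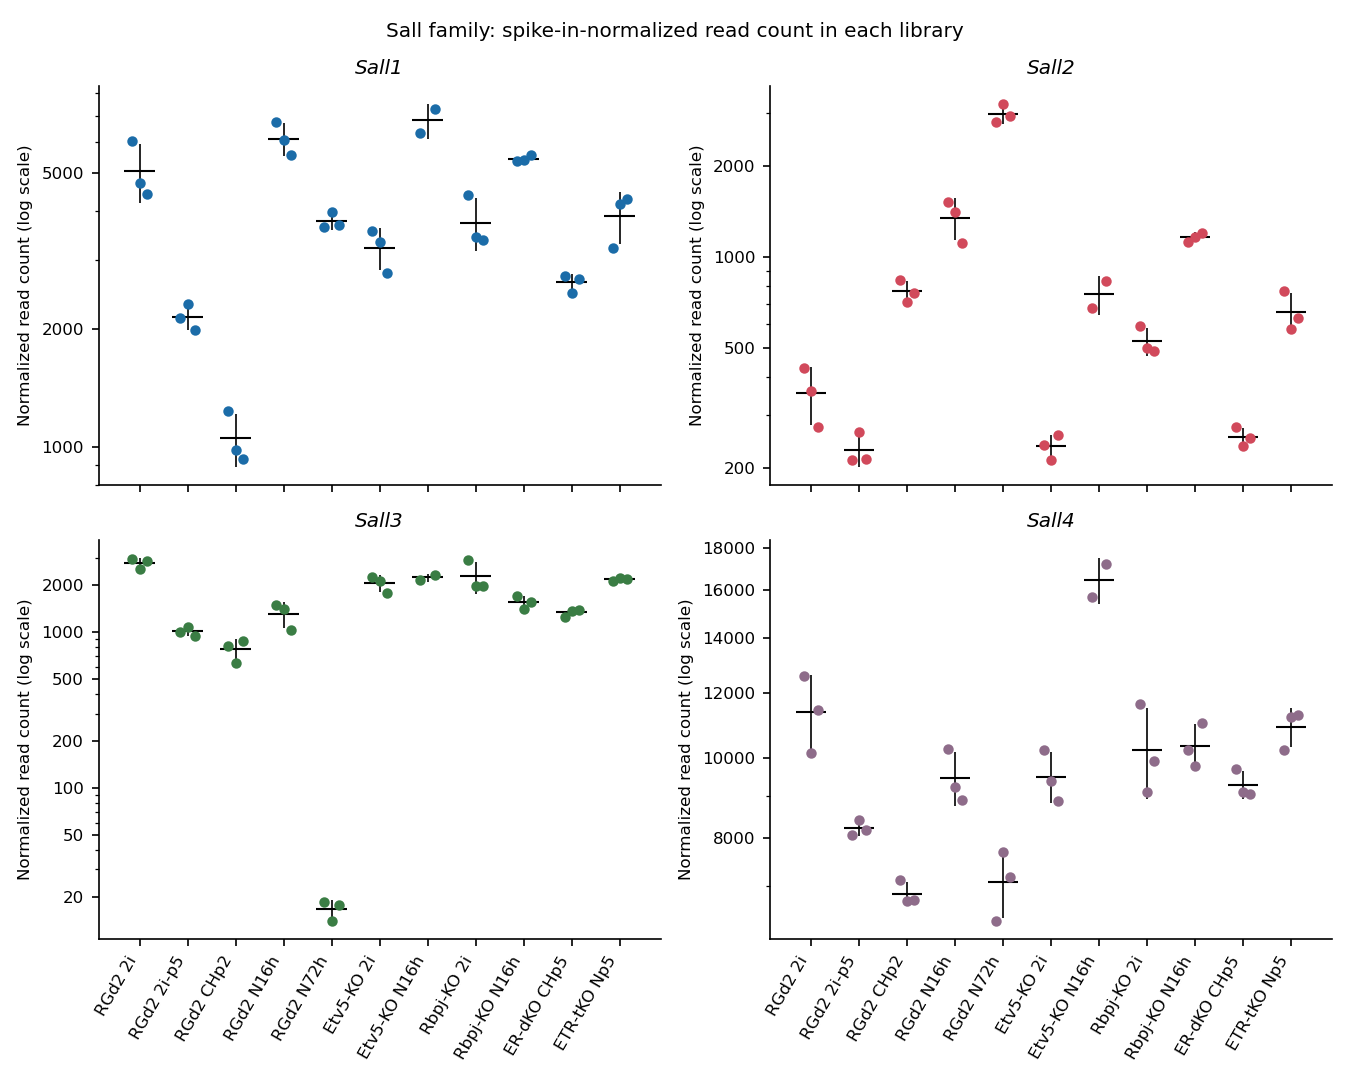
Spike-in-normalized read counts (log scale) of each member in the 32 libraries, grouped by condition. Points are libraries, horizontal lines are means and vertical lines are ± SD. *Sall3* in RGd2 N72h sits below 20 in all 3 libraries, and *Sall4* in *Etv5*-KO N16h sits above every other library.

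Over the 11 condition means of log2 normalized counts, *Sall1* and *Sall4* had the closest profiles of the family (Pearson r = 0.72), followed by *Sall3* and *Sall4* (r = 0.61). *Sall2* and *Sall3* ran in opposite directions (r = −0.64), and the other pairs lay between −0.16 and 0.30. The points share spike-in scaling and the same libraries, so these values describe the profiles only. Among 11833 named genes with at least 1 FPKM in some condition, those most like *Sall1* were *Nqo2* (r = 0.96), *Foxd3*, a forkhead factor of pluripotent and neural crest cells (r = 0.96), and *S100pbp* (r = 0.94). *Rnf141* (r = 0.96), *Sbf2* (r = 0.95) and *G2e3* (r = 0.95) were most like *Sall2*. The closest to *Sall3* were *Ttc39b* (r = 0.98), *Hspb1*, a small heat shock protein (r = 0.97), and *Dppa5a*, a marker of naive ESCs (r = 0.97). For *Sall4* they were *Nf2*, the Merlin tumour suppressor (r = 0.98), *Psmd4*, a proteasome subunit (r = 0.97), and *Ifitm5* (r = 0.96).

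The first 16 h after 2i withdrawal answer how the family behaves as RGd2 cells begin to leave the naive state. *Sall2* rose, *Sall3* fell, and *Sall1* and *Sall4* moved little. *Sall2* had normalized counts of 430, 360 and 275 in the RGd2 2i libraries and 1524, 1415 and 1116 at N16h. All N16h libraries were above all 2i libraries, a 3.70-fold rise (log2 fold change 1.89, SE 0.14, adjusted p = 2.25e-14). Here and throughout, adjusted p-values are from the edgeR quasi-likelihood fit to all tested genes, after Benjamini-Hochberg correction. Overlap of libraries was checked for the members only, so it has no share of all genes beside it. *Sall3* was at 2940, 2529 and 2863 in 2i and at 1483, 1405 and 1030 at N16h. The groups did not overlap, and the fall was 2.12-fold (log2 fold change −1.08, SE 0.13, adjusted p = 1.29e-08). As the samples are bulk cultures, fewer cells that express a gene and less RNA per cell cannot be told apart here or in the comparisons that follow.

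*Sall1* counts of 6044, 4718 and 4425 in 2i and of 6754, 6054 and 5562 at N16h overlapped, and the difference of 0.27 (SE 0.12) on the log2 scale missed the threshold (adjusted p = 0.0832). It passed with TMM (log2 fold change 0.50, adjusted p = 3.87e-06) and without RGd2 2i replicate 31, the highest of the 2i libraries (0.42, adjusted p = 0.0106). *Sall4* was at 12593, 10136 and 11427 in 2i and at 10252, 9229 and 8910 at N16h, with overlap. Its fall of 1.20-fold was called (log2 fold change −0.27, SE 0.10, adjusted p = 0.0312), but not with TMM (−0.05, adjusted p = 0.558) and not with the cell line as a block (−0.27, adjusted p = 0.124). Nor was it called without RGd2 2i replicate 31 (−0.19), or without RGd2 N16h replicate 23 (−0.25) or 24 (−0.23). In this comparison 46% of the 11748 expressed genes tested were called, against 3 of the 4 members, and the median log2 fold change of all expressed genes was −0.23. Higher genes made up 18.8% of the calls with spike-in scaling and 48.5% with TMM.

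The naive network is known to collapse on 2i withdrawal, and its factors and the formative markers are given for scale. Of 12 core and naive pluripotency factors, 9 fell and 1 rose, with a median log2 fold change of −1.41. *Prdm14*, a repressor that guards naive identity, had the largest change (−2.83, SE 0.14, adjusted p = 7.31e-20), followed by *Klf2* (−2.55, SE 0.21, adjusted p = 9.01e-13). Of 9 formative markers, 8 rose and none fell, with a median of 1.63. *Pou3f1*, an octamer-binding factor (5.24, SE 0.33, adjusted p = 2.43e-16), and *Etv4*, the ETS factor closest to *Etv5* (4.48, SE 0.15, adjusted p = 4.59e-25), led. *Sall2* changed in the direction of the formative list and *Sall3* in that of the naive list. Neural markers moved in both directions, with 2 of 9 called higher and 2 lower and a lower sum at N16h (16.8 to 21.0 FPKM) than in 2i (48.5 to 57.9 FPKM). *Sox1* (3.03, SE 0.38, adjusted p = 2.56e-08) and *Pax6* (3.28, SE 0.27, adjusted p = 5.80e-13) rose to means of 1.13 and 1.45 FPKM, while *Zic1* was at 0.0284 FPKM. The part of neural cells in the result was not tested.

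By 72 h in N2B27 the split between *Sall2* and *Sall3* had widened. *Sall3* (ENSMUSG00000024565.8, chr18:80966376-80986578, minus strand, 4 merged exons of 6886 bases) was almost lost, with raw counts of 18, 9 and 29, or normalized counts of 18.7, 14.1 and 17.7, against more than 2500 in each 2i library. The fitted fall was 160.4-fold (log2 fold change −7.33, SE 0.20, adjusted p = 4.36e-28). *Sall2* was at 2799, 3211 and 2923, each above every library of the other conditions, an 8.13-fold rise from 2i (log2 fold change 3.02, SE 0.14, adjusted p = 6.87e-21). *Sall4*, at 6355, 7708 and 7173, fell 1.61-fold without overlap (log2 fold change −0.69, SE 0.10, adjusted p = 2.06e-07). *Sall1* was at 3639, 3971 and 3689, below every 2i library, a fall of 1.35-fold (log2 fold change −0.43, SE 0.13, adjusted p = 0.00331). That last call was lost without RGd2 2i replicate 31 (−0.28, adjusted p = 0.0587) and in a fit to the compared libraries only (−0.43, adjusted p = 0.0631). All 4 members were called, where 66% of 12370 expressed genes were (32.5% of them higher, 49% with TMM) and the median log2 fold change was −0.25.

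From N16h to N72h, *Sall3* lost a further 75.6-fold (log2 fold change −6.24, SE 0.20, adjusted p = 7.95e-26), so that on the log2 scale most of its decline fell in this interval. *Sall2* rose a further 2.20-fold (log2 fold change 1.14, SE 0.13, adjusted p = 9.14e-10). *Sall1* fell 1.63-fold (−0.70, SE 0.12, adjusted p = 8.31e-06) and *Sall4* fell 1.34-fold (−0.42, SE 0.10, adjusted p = 4.68e-04). No member had overlapping libraries between the time points. The background was 60.9% of 12280 expressed genes called, with a median log2 fold change of 0.0015 that TMM moved by 0.01 only. *Sall1* had a mean of 5062 in 2i, 6124 at N16h and 3766 at N72h. It was the sole member whose highest mean of these RGd2 conditions was at N16h. Its mean in RGd2 2i-p5 was 2152, below that at N72h. The labels do not say which 2i culture the N72h cells came from, so a rise and fall within the same culture was not tested. Over the whole interval from 2i, all 12 pluripotency factors fell, with a median of −4.31, led by *Prdm14* (−5.93, SE 0.18, adjusted p = 4.67e-27) and *Tfcp2l1* (−5.40, SE 0.16, adjusted p = 2.80e-27). Of the formative markers 8 rose and 1 fell, with a median of 2.86, led by *Pou3f1* (6.59, SE 0.33, adjusted p = 4.64e-20) and *Fgf5* (5.92, SE 0.40, adjusted p = 3.70e-16).

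Markers of other cell types moved at N72h as well. Of 7 primitive endoderm markers 3 were called higher than in 2i, and the summed FPKM of the list was 5.35 to 15.9 at N72h against 0.547 to 2.56 in 2i, the highest library being the clonal replicate 9. *Sall3* was near the floor in all N72h libraries (14.1 to 18.7 normalized counts), so its relation to that sum cannot be judged. Neural markers summed to 78.2 to 93.5 FPKM at N72h, against 48.5 to 57.9 in 2i, but only *Nes* and *Tubb3* of the 9 reached a mean of 1 FPKM. They moved in opposite directions. *Nes* was called higher (log2 fold change 3.76, means of 2.57 FPKM in 2i and 45.9 FPKM at N72h). *Tubb3* was called lower (−0.63, means of 48.6 and 37.1 FPKM). *Sox1*, *Pax6* and *Zic1*, which define neural progenitors, were below 1 FPKM at N72h. Mesendoderm markers summed to 0.987 to 1.55 FPKM and 2-cell-like markers to 0.342 to 0.427 FPKM. The part of these cells in the results was not tested.

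In CHIR99021 alone, RGd2 cells lost *Sall1* and *Sall3* and gained *Sall2*. *Sall1* had counts of 1240, 984 and 936 in CHp2, its lowest of all conditions, 4.83-fold below 2i (log2 fold change −2.27, SE 0.13, adjusted p = 2.46e-17). *Sall3* was at 819, 637 and 878, 3.58-fold lower (−1.84, SE 0.14, adjusted p = 3.58e-14), and *Sall4* at 7112, 6706 and 6732, 1.66-fold lower (−0.73, SE 0.10, adjusted p = 9.29e-08). *Sall2* was at 838, 708 and 760, 2.10-fold higher (1.07, SE 0.14, adjusted p = 4.74e-08). None of the members had overlapping libraries, and 55.5% of 12168 expressed genes were called, with a median log2 fold change of −0.21 and 30.2% of calls higher (44.2% with TMM). All 12 pluripotency factors fell (median −1.75), led by *Prdm14* (−3.71, SE 0.16, adjusted p = 1.21e-21) and *Tfcp2l1* (−2.63, SE 0.14, adjusted p = 1.05e-18). *Sall1* fell more from 2i in CHp2 than it did by N72h, whereas *Sall3* fell less, and both comparisons share the RGd2 2i libraries. Mesendoderm markers moved with this condition: their sum was 70.6 to 74.3 FPKM against 8.65 to 11.8 in 2i, nearly all of it *T*, at 69.1 ± 1.89 FPKM (SD, n = 3). *Eomes* was at 1.91 ± 0.138 FPKM (SD, n = 3), against 3.47 ± 2.01 FPKM (SD, n = 3) in 2i, and the remaining 5 had means under 1 FPKM in CHp2. Their part in the result was not tested.

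The 2 RGd2 cultures in 2i differed. After 5 passages *Sall1* was at 2137, 2324 and 1993, 2.36-fold below the short 2i culture (log2 fold change −1.24, SE 0.13, adjusted p = 2.46e-09), and *Sall3* at 1004, 1083 and 945, 2.75-fold below (−1.46, SE 0.14, adjusted p = 3.17e-10). *Sall2*, at 212, 263 and 215, was 1.58-fold lower (−0.66, SE 0.15, adjusted p = 6.48e-04), and *Sall4*, at 8076, 8413 and 8190, was 1.38-fold lower (−0.47, SE 0.10, adjusted p = 3.65e-04). The groups did not overlap for any of them, though overlap was not counted over all genes. This comparison had the largest overall shift of those between 2 conditions: 52.3% of 11552 expressed genes were called, 5.53% of them higher, and the median log2 fold change was −0.35. With TMM 50.9% of calls were higher. *Sall1* (−0.91, adjusted p = 7.39e-10) and *Sall3* (−1.14, adjusted p = 2.89e-08) were still called with TMM, and *Sall2* (−0.32, adjusted p = 0.0843) and *Sall4* (−0.15, adjusted p = 0.119) were not.

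Measured from 2i-p5, *Sall1* at N72h was 1.75-fold higher (log2 fold change 0.81, SE 0.13, adjusted p = 9.97e-07), the opposite of its change from 2i. *Sall2* was 12.9-fold higher (3.69, SE 0.15, adjusted p = 6.77e-23) and *Sall3* 58.4-fold lower (−5.87, SE 0.20, adjusted p = 3.88e-25), as against 2i, and *Sall4* did not pass (−0.22, SE 0.10, adjusted p = 0.0671). For that pairing 57.1% of 12247 expressed genes were called. CHp2 against 2i-p5 kept all 4 directions, with *Sall1* 2.05-fold lower (−1.03, SE 0.13, adjusted p = 2.20e-08), *Sall2* 3.32-fold higher (1.73, SE 0.15, adjusted p = 1.13e-12), *Sall3* at −0.38 (SE 0.14, adjusted p = 0.0265) and *Sall4* at −0.26 (SE 0.10, adjusted p = 0.0337), where 42.2% of 12054 expressed genes were called. These pairings were chosen after the data had been seen.

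**Figure D3:**
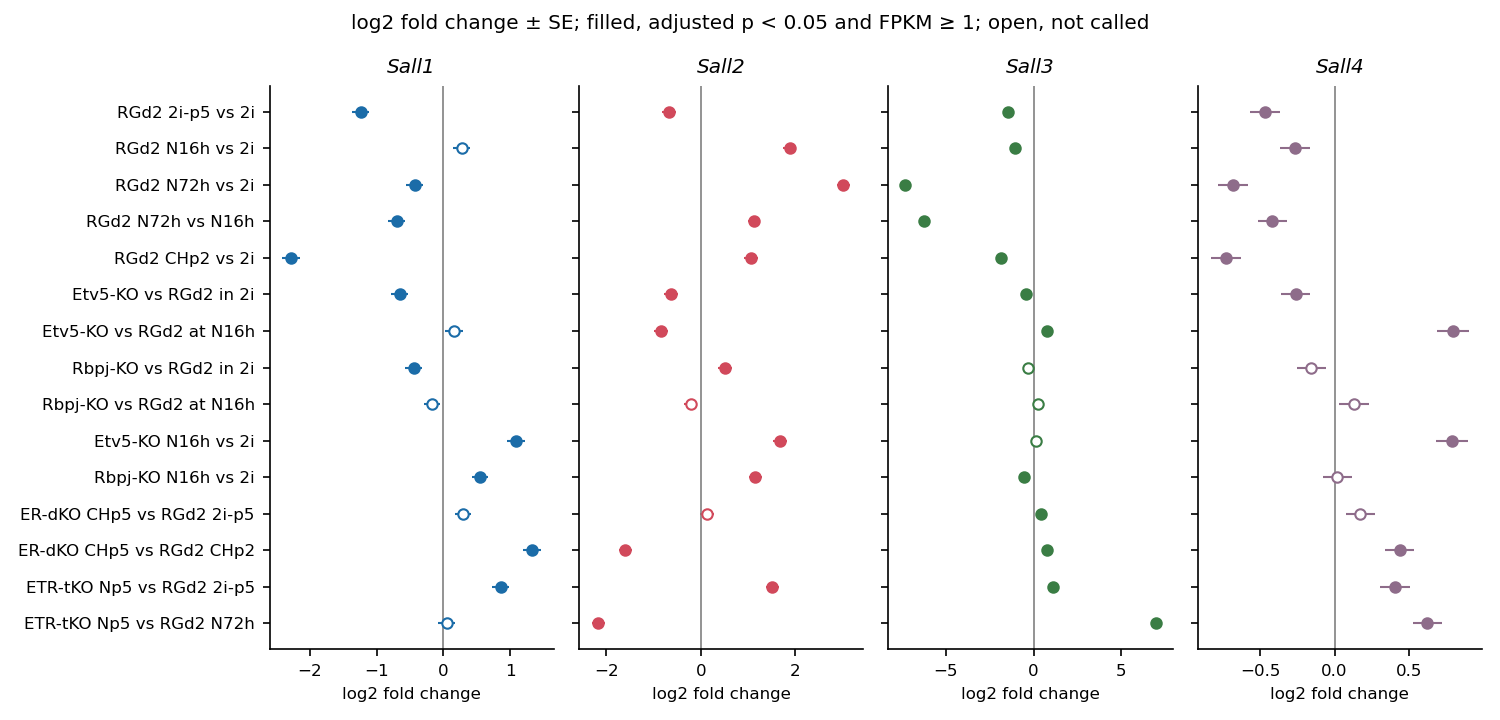
log2 fold changes (horizontal axes, scaled separately for each member) ± SE for the 15 comparisons of 2 conditions. Filled points were called (adjusted p under 0.05 and at least 1 FPKM), open points were not. *Sall2* is positive and *Sall3* negative in the RGd2 exit comparisons, and all 4 members are positive in ETR-tKO Np5 against RGd2 2i-p5.

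In 2i, loss of *Etv5* went with lower *Sall1* and *Sall2*. *Sall1* was at 3552, 3339 and 2786 in the *Etv5*-KO clones against 6044, 4718 and 4425 in RGd2, 1.57-fold lower with no overlap (log2 fold change −0.65, SE 0.13, adjusted p = 1.01e-04). *Sall2* was at 238, 213 and 257, all below the RGd2 libraries, 1.55-fold lower (−0.63, SE 0.14, adjusted p = 8.09e-04). With TMM both stayed called, at −0.42 (adjusted p = 7.50e-05) and −0.38 (adjusted p = 0.0216). *Sall3*, at 2271, 2127 and 1789, was called lower (−0.43, SE 0.13, adjusted p = 0.0125), as was *Sall4*, at 10224, 9384 and 8884 (−0.26, SE 0.10, adjusted p = 0.0445), which overlapped RGd2. Neither was called with TMM (−0.21, adjusted p = 0.196, and −0.04, adjusted p = 0.718). Both calls were also lost without *Etv5*-KO replicate 27 (−0.34 and −0.22) or RGd2 replicate 31 (−0.38 and −0.18), and that of *Sall4* without *Etv5*-KO replicate 26 (−0.25). Of 11569 expressed genes 34% were called, 18% of them higher with spike-ins and 60.7% with TMM, and the median was −0.20. Among 12 pluripotency factors 4 fell and 1 rose (median −0.18), led by *Klf5* (−0.78, SE 0.15, adjusted p = 1.49e-04) and *Tbx3* (0.57, SE 0.15, adjusted p = 0.00416).

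At N16h the *Etv5*-KO pattern was different. *Sall4* was at 15691 and 17188 in the 2 *Etv5*-KO libraries against 10252, 9229 and 8910 in RGd2, 1.74-fold higher (log2 fold change 0.80, SE 0.11, adjusted p = 4.09e-07). Both libraries were above every other library of the series. *Sall3*, at 2147 and 2331 against 1483, 1405 and 1030, was 1.71-fold higher (0.78, SE 0.14, adjusted p = 6.88e-05). *Sall2* was at 677 and 835 against 1524, 1415 and 1116, 1.79-fold lower (−0.84, SE 0.15, adjusted p = 2.97e-05). None of these 3 overlapped. *Sall1*, at 6324 and 7293, overlapped RGd2 and did not differ beyond the spread (0.15, SE 0.14, adjusted p = 0.459; −0.09 with TMM). The background was 32.5% of 11735 expressed genes, 90% of them higher (56.7% with TMM), with a median of 0.23. *Sall4* and *Sall3* stayed called with TMM, at 0.56 (adjusted p = 4.61e-07) and 0.54 (adjusted p = 0.00184). All 12 pluripotency factors were higher than in RGd2 (median 1.06), led by *Tbx3* (2.66, SE 0.17, adjusted p = 5.36e-15) and *Prdm14* (1.80, SE 0.14, adjusted p = 1.31e-12). Of the formative markers 6 were lower and 1 higher (median −0.64), led by *Lef1* (−2.32, SE 0.20, adjusted p = 1.41e-11) and *Pou3f1* (−1.60, SE 0.26, adjusted p = 9.90e-06).

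From 2i to N16h, *Etv5*-KO cells raised *Sall1* 2.11-fold (log2 fold change 1.08, SE 0.14, adjusted p = 3.04e-08), *Sall2* 3.20-fold (1.68, SE 0.15, adjusted p = 4.33e-12) and *Sall4* 1.73-fold (0.79, SE 0.11, adjusted p = 1.86e-07), each without overlap. *Sall3* did not change beyond the spread (0.12, SE 0.15, adjusted p = 0.571; −0.13 with TMM). Here 40.7% of 11832 expressed genes were called, 76.8% of them higher (43.6% with TMM), and the median was 0.19. The response was then compared directly with that of RGd2. *Sall3* differed by 1.20 (SE 0.20, adjusted p = 1.33e-05), *Sall4* by 1.06 (SE 0.15, adjusted p = 1.06e-06) and *Sall1* by 0.81 (SE 0.19, adjusted p = 0.00134) on the log2 scale, all more positive in *Etv5*-KO. *Sall2* differed by −0.21 (SE 0.20, adjusted p = 0.444), and with TMM by −0.70 (adjusted p = 0.0062). This difference was called for 37.3% of 12246 expressed genes, 98.6% of them positive, with a median of 0.44. With TMM 59.5% were positive, *Sall3* (0.75, adjusted p = 0.00343) and *Sall4* (0.60, adjusted p = 5.70e-05) were called, and *Sall1* was not (0.34, adjusted p = 0.0582). Relative to the median of all genes, the differences were 0.77 for *Sall3*, 0.62 for *Sall4*, 0.37 for *Sall1* and −0.65 for *Sall2*. All 12 pluripotency factors differed in the positive direction (median 1.08), and of 9 formative markers 4 were positive and 2 negative.

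**Figure D4:**
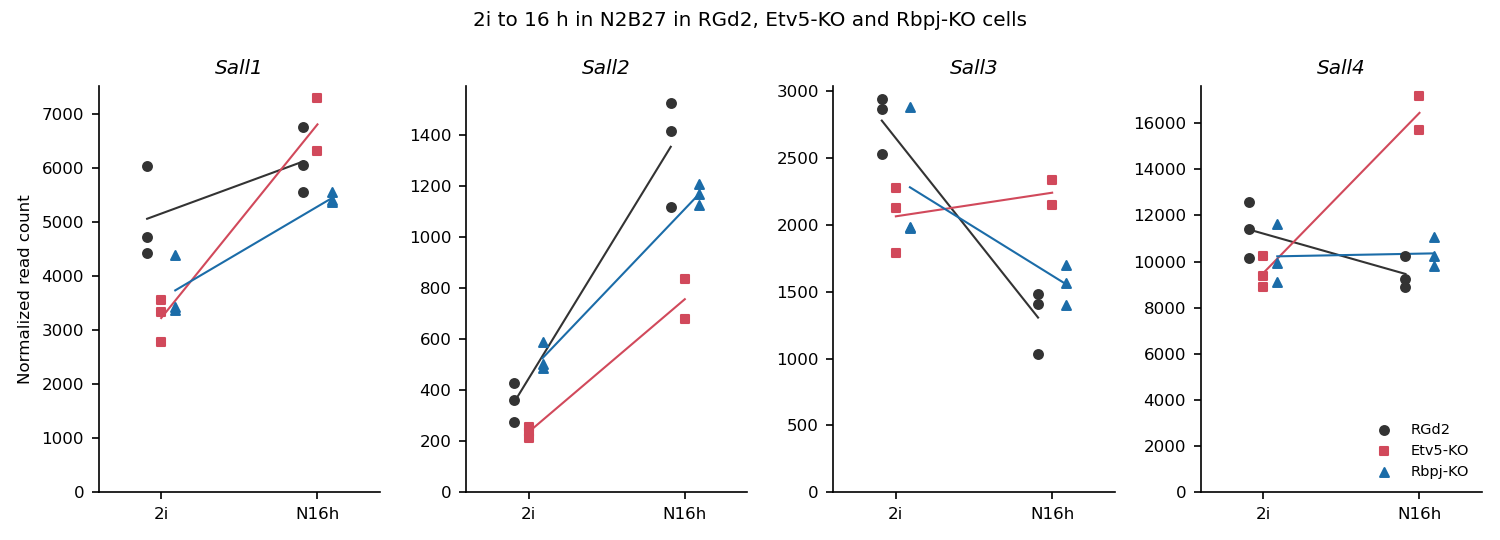
Normalized read counts (vertical axes from 0) in 2i and at N16h for RGd2, *Etv5*-KO and *Rbpj*-KO cells. Points are libraries and lines join the means. *Sall4* rises in *Etv5*-KO to 15691 and 17188, *Sall3* falls in RGd2 but not in *Etv5*-KO, and *Sall2* rises in all 3 genotypes.

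In *Rbpj*-KO cells 2 members were called in 2i and none at N16h. In 2i *Sall1* was at 4398, 3437 and 3379, below all RGd2 libraries, 1.36-fold lower (log2 fold change −0.44, SE 0.13, adjusted p = 0.0155), and *Sall2* at 589, 501 and 487, above all RGd2 libraries, 1.43-fold higher (0.51, SE 0.14, adjusted p = 0.0125). *Sall3*, at 2878, 1983 and 1977, and *Sall4*, at 11636, 9110 and 9931, overlapped RGd2 and were not called (−0.29, SE 0.13, adjusted p = 0.185, and −0.16, SE 0.10, adjusted p = 0.398). The calls of *Sall1* and *Sall2* stayed with TMM (−0.39, adjusted p = 4.22e-04, and 0.58, adjusted p = 8.98e-04) but depended on single libraries. *Sall1* lost its call without *Rbpj*-KO replicate 29 (−0.39) or 30 (−0.38) or RGd2 replicate 31 (−0.30), and *Sall2* without *Rbpj*-KO replicate 28 (0.43) or RGd2 replicate 32 (0.50). *Sall3* was highest in replicate 28, and without it *Sall3* was called lower (−0.49, adjusted p = 0.0137). The background was 11.4% of 11546 expressed genes, 46.1% of them higher (60.2% with TMM), with a median of −0.04. Primitive endoderm markers summed to 8.20 FPKM in replicate 30, clone c36, against 0.752 and 1.19 in the other *Rbpj*-KO 2i libraries. The part of those cells was not tested.

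At N16h none of the 4 members was called between *Rbpj*-KO and RGd2, where 22.2% of 11717 expressed genes were (84.6% higher, 54.2% with TMM, median 0.14). *Sall1* was at 5366, 5403 and 5555 in *Rbpj*-KO, just below the lowest RGd2 library at 5562 (−0.17, SE 0.12, adjusted p = 0.392), and *Sall2* at 1125, 1168 and 1206 (−0.22, SE 0.13, adjusted p = 0.282). *Sall3* was at 1696, 1403 and 1564 (0.25, SE 0.13, adjusted p = 0.208) and *Sall4* at 10221, 9791 and 11050 (0.13, SE 0.10, adjusted p = 0.42). At an unadjusted p under 0.05 the count was also 0, and DESeq2's Wald test called none. With TMM, *Sall1* (−0.33, adjusted p = 0.00191) and *Sall2* (−0.37, adjusted p = 0.0121) were called lower. In the same comparison 9 of 12 pluripotency factors were higher and none lower (median 0.58), led by *Tbx3* (1.54, SE 0.16, adjusted p = 7.29e-10) and *Nanog* (1.38, SE 0.10, adjusted p = 3.38e-13). Clone c36 again had the highest primitive endoderm sum, 10.3 FPKM against 1.36 and 2.08.

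During exit *Rbpj*-KO cells raised *Sall2* 2.23-fold (log2 fold change 1.16, SE 0.13, adjusted p = 7.28e-09) and *Sall1* 1.46-fold (0.54, SE 0.13, adjusted p = 9.40e-04) and lowered *Sall3* 1.46-fold (−0.55, SE 0.13, adjusted p = 0.0017). *Sall4* stayed where it was within the spread (0.02, SE 0.10, adjusted p = 0.927). The fall of *Sall3* was not called without 2i replicate 28 (−0.35, adjusted p = 0.0611). Of 11776 expressed genes 27.9% were called. Set against the RGd2 response, *Sall2* differed by −0.73 (SE 0.19, adjusted p = 0.0237; −0.95 and adjusted p = 4.45e-04 with TMM), that is, it rose less in *Rbpj*-KO. That call was lost without *Rbpj*-KO 2i replicate 28 (−0.65) or N16h replicate 19 (−0.70) and without RGd2 N16h replicate 22 (−0.64) or 23 (−0.70). The other 3 did not pass: *Sall3* differed by 0.54 (SE 0.19, adjusted p = 0.115), *Sall4* by 0.29 (SE 0.14, adjusted p = 0.324) and *Sall1* by 0.27 (SE 0.18, adjusted p = 0.474). Without *Rbpj*-KO 2i replicate 28, *Sall3* was called (0.74, adjusted p = 0.0129). Only 4.03% of 12162 expressed genes were called in this comparison, 94.1% of them positive (63.8% with TMM), with a median of 0.19, so *Sall2* lay on the rarer side. Both single mutants were compared with the same RGd2 libraries, and a difference between the mutants was not tested.

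ER-dKO cells were profiled after 5 passages in CHIR99021 alone, and RGd2 cells after 2, so that passage number differs between them as well as genotype. Against RGd2 CHp2, *Sall1* at 2725, 2479 and 2688 was higher (log2 fold change 1.32, SE 0.13, adjusted p = 3.62e-11), *Sall3* at 1255, 1373 and 1387 was 1.73-fold higher (0.79, SE 0.14, adjusted p = 6.75e-06) and *Sall4* at 9693, 9093 and 9048 was 1.35-fold higher (0.44, SE 0.10, adjusted p = 3.67e-04). *Sall2*, at 273, 238 and 252, was 3.02-fold lower (−1.60, SE 0.14, adjusted p = 1.40e-12). The groups did not overlap for any member, and 49.7% of 12083 expressed genes were called, with a median of 0.09. All 12 pluripotency factors were higher (median 1.45), led by *Klf4*, a Krüppel-like factor of the naive network (3.18, SE 0.14, adjusted p = 8.93e-21). The mesendoderm sum was 14.8 to 16.4 FPKM in ER-dKO CHp5, below the CHp2 range.

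Against RGd2 2i-p5 only *Sall3* was called, 1.33-fold higher (log2 fold change 0.41, SE 0.13, adjusted p = 0.0165), and that call was lost with TMM (0.24, adjusted p = 0.119), without ER-dKO replicate 12 (0.38) and without RGd2 2i-p5 replicate 3 (0.36). *Sall1* (0.29, SE 0.13, adjusted p = 0.0713) and *Sall4* (0.17, SE 0.10, adjusted p = 0.182) had every ER-dKO library above every 2i-p5 library but were not called, and *Sall2* overlapped (0.14, SE 0.15, adjusted p = 0.507). Here 42.4% of 11562 expressed genes were called, 80.1% of them higher (58.5% with TMM), with a median of 0.21. With the short RGd2 2i culture as control, all 4 members were called lower, *Sall1* 1.93-fold (−0.95, SE 0.13, adjusted p = 8.89e-08), *Sall3* 2.07-fold (−1.05, SE 0.13, adjusted p = 3.05e-08), *Sall2* 1.44-fold (−0.53, SE 0.14, adjusted p = 0.00315) and *Sall4* 1.23-fold (−0.30, SE 0.10, adjusted p = 0.0192), where 38.3% of 11692 expressed genes were called.

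ETR-tKO cells, cultured for 5 passages in N2B27 without inhibitors, had abundant *Sall3*. The Np5 libraries had *Sall3* counts of 2129, 2227 and 2182, against 18.7, 14.1 and 17.7 in RGd2 N72h, a fitted 125.9-fold difference (log2 fold change 6.98, SE 0.20, adjusted p = 4.09e-27). *Sall2* was at 771.5, 578.2 and 628.1, 4.50-fold below RGd2 N72h (−2.17, SE 0.13, adjusted p = 4.00e-17), and *Sall4* at 10243, 11231 and 11296, 1.54-fold above it (0.63, SE 0.10, adjusted p = 1.32e-06). *Sall1*, at 3216, 4169 and 4291, overlapped RGd2 N72h and did not differ beyond the spread (0.05, SE 0.12, adjusted p = 0.78; −0.05 with TMM). Of 12338 expressed genes 59.1% were called, with a median of 0.11. All 12 pluripotency factors were higher (median 3.98), led by *Klf4* (5.45, SE 0.17, adjusted p = 1.35e-26) and *Tbx3* (5.22, SE 0.19, adjusted p = 4.38e-24), and 7 of 9 formative markers were lower with 1 higher (median −2.88), led by *Lef1* (−4.11, SE 0.21, adjusted p = 5.13e-20) and *Fgf5* (−3.34, SE 0.30, adjusted p = 1.83e-12).

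Against RGd2 2i-p5 all 4 members were higher in ETR-tKO Np5 with no overlap: *Sall2* 2.86-fold (log2 fold change 1.52, SE 0.14, adjusted p = 3.15e-11), *Sall3* 2.16-fold (1.11, SE 0.13, adjusted p = 1.08e-08), *Sall1* 1.81-fold (0.85, SE 0.13, adjusted p = 6.74e-07) and *Sall4* 1.33-fold (0.41, SE 0.10, adjusted p = 0.00107). With TMM they were called too, at 1.31, 0.89, 0.63 and 0.19, but with gene median-of-ratios size factors *Sall4* was not (0.17, adjusted p = 0.0561). Neural markers moved with this comparison, summing to 68.0 to 71.1 FPKM in ETR-tKO Np5 against 23.6 to 25.9 FPKM in 2i-p5. Of the 9, *Tubb3* (1.75, SE 0.12, adjusted p = 3.61e-15), *Pax6* (2.15, SE 0.23, adjusted p = 9.19e-10) and *Nes* (1.62, SE 0.18, adjusted p = 1.14e-09) were called higher and none lower, *Sox1* and *Zic1* stayed under 1 FPKM, and the part of such cells in the result was not tested. The background was 47.3% of 11814 expressed genes, 79.8% of them higher (51.9% with TMM), with a median of 0.23. The short 2i culture gave another picture for 3 of them. *Sall1* (−0.38, SE 0.12, adjusted p = 0.0134) and *Sall3* (−0.35, SE 0.13, adjusted p = 0.0326) were lower than in RGd2 2i, *Sall4* was not called (−0.06, SE 0.10, adjusted p = 0.676), and *Sall2* was 1.81-fold higher (0.85, SE 0.14, adjusted p = 3.73e-06), in a comparison that called 45.1% of 11932 expressed genes. *Sall2* was thus above both 2i cultures and below N72h. Clone and culture are not separated here, since no ETR-tKO library was grown in 2i and no RGd2 library for 5 passages in N2B27, and the effects of genotype and medium cannot be told apart.

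**Figure D5:**
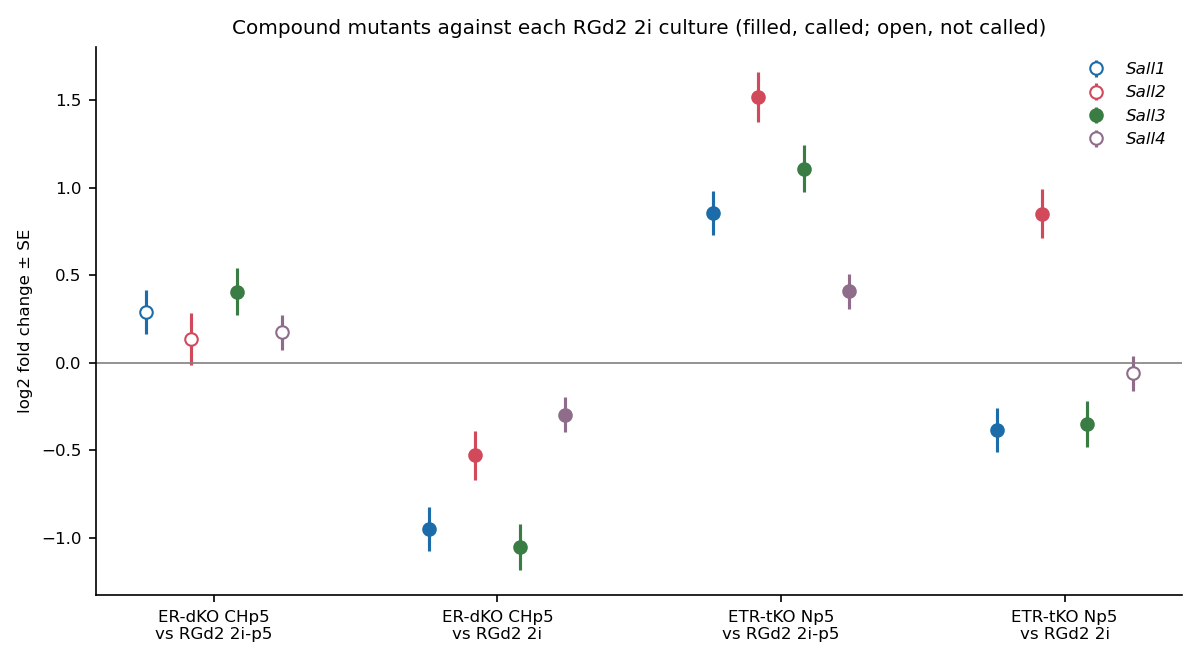
log2 fold changes ± SE (vertical axis) of the 4 members in ER-dKO CHp5 and ETR-tKO Np5 against each of the 2 RGd2 2i cultures. Filled points were called and open points were not. *Sall1* and *Sall3* are above 0 against 2i-p5 and below 0 against 2i in both mutants, and *Sall2* in ETR-tKO is above 0 against both.

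The NuRD complex, to which SALL1 and SALL4 bind, was measured in the same libraries by 14 subunit genes, all of which were tested and reached 1 FPKM in at least 1 group of each comparison. In RGd2 cells 1 rose and 3 fell by N16h (median log2 fold change −0.15), 2 rose and 7 fell by N72h (median −0.28), 2 rose and 8 fell in CHp2 (median −0.26), and 8 fell with none higher in 2i-p5 (median −0.38). Those medians lie near the medians of all expressed genes given above, and 46%, 66%, 55.5% and 52.3% of expressed genes were called in the same order. *Chd3*, a remodelling ATPase of the complex, had the largest change at N16h (−0.69, SE 0.21, adjusted p = 0.00644) and in CHp2 (1.79, SE 0.21, adjusted p = 1.77e-09). *Mbd2*, a methyl-CpG-binding subunit, fell most by N72h (−0.80, SE 0.14, adjusted p = 6.59e-06). In *Etv5*-KO, 1 was higher and 5 lower in 2i (median −0.21) and 4 were higher and 1 lower at N16h (median 0.26), and 7 rose with none falling during exit (median 0.30), led by *Cdk2ap1* (0.92, SE 0.18, adjusted p = 6.12e-05). Of all expressed genes 34%, 32.5% and 40.7% were called in the same order, with medians of −0.20, 0.23 and 0.19. Of those calls 18%, 90% and 76.8% were higher (60.7%, 56.7% and 43.6% with TMM). *Rbpj*-KO had 1 lower in 2i (median −0.06), *Chd3* (−1.37, SE 0.22, adjusted p = 1.12e-05), and 1 higher and 1 lower at N16h (median 0.02). The shares called over all expressed genes were 11.4% and 22.2%, with medians of −0.04 and 0.14. Against RGd2 2i-p5, 3 were higher and 2 lower in ER-dKO CHp5 (median 0.13) and 5 higher and 1 lower in ETR-tKO Np5 (median 0.08). Of all expressed genes 42.4% and 47.3% were called there, 80.1% and 79.8% of them higher, with medians of 0.21 and 0.23. Against RGd2 N72h, 3 were higher and 3 lower in ETR-tKO Np5 (median −0.01), where 59.1% of expressed genes were called (median 0.11). In ER-dKO CHp5 against RGd2 CHp2, 1 was higher and 4 lower (median −0.06), where 49.7% of expressed genes were called. The largest change of a NuRD subunit was that of *Chd3* in this comparison (−3.14, SE 0.21, adjusted p = 1.11e-15). It was larger than that of any Sall member there, the largest being *Sall2* (−1.60). It was smaller than the fall of *Sall3* from 2i to N72h (−7.33), which rests on low counts.

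Trophoblast markers summed to 11.4 to 15.5 FPKM in RGd2 2i, to 1.74 to 1.86 FPKM at N16h and to 23.0 to 30.2 FPKM in CHp2. *Sall3* was below its 2i level both at N16h and in CHp2. In 2i nearly all of the sum was *Cdx2* and *Tfap2c*, while *Elf5* and *Hand1* had no counts there. The 2-cell-like markers summed to 3.03 to 16.7 FPKM in RGd2 2i and 2.41 to 21.7 FPKM in RGd2 N16h, the lowest values there being those of the clonal line. They summed to less than 1 FPKM in every mutant library. RGd2 libraries were that low as well, at 0.342 to 0.427 FPKM in N72h and 0.727 to 6.02 FPKM in CHp2. At N72h 3 of the 6 were called lower than in 2i (median −5.36). The part of either list in the results was not tested.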

How the data were processed

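The deposited values are raw read counts per gene from ribosome-depleted RNA, which the authors obtained by strand with featureCounts over Gencode M14 genes. Alignment was by TopHat2, after Trim Galore, against GRCm38/mm10 extended by the spike-in sequences. Of the gene identifiers, 193 had no symbol and held 0.02589% of counts. Size factors were computed from 52 of 92 spike-ins, and 18892 genes passed edgeR's low-count filter. All 32 libraries were fitted in 1 quasi-likelihood model (edgeR 4.0.16, R 4.3.3), with two-sided tests and Benjamini-Hochberg adjustment over all tested genes. A gene was called at an adjusted p under 0.05 and a mean of at least 1 FPKM in a compared group. FPKM was computed here from counts and merged exon lengths. The percentages of called genes count only genes that reach that FPKM. DESeq2 1.42.0, TMM, other size factors, filters, subsets of libraries, the cell line as a block and leaving out each library were tried as alternatives. The script for the fit was tested on simulated data. Libraries were paired between 2i and N16h by the cell line that the labels name, since these are the same lines. With that block the call for *Sall4* in RGd2 N16h against 2i was lost (log2 fold change −0.27, adjusted p = 0.124).

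The 4 members were named with their values in every comparison. For each member the 3 named genes (at least 1 FPKM in some condition) with the highest Pearson r of log2 levels over 11 conditions were given. From each gene list at most 2 called genes with the largest change were named beside the list median, and targeted genes where they were deleted. The members and lists were chosen with earlier results of these data known.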

Additional observations from a re-analysis of the deposited data

Results flagged for a closer look

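The change from 2i to N16h differed between *Etv5*-KO and RGd2 cells for 3 members, by a test of the difference itself (edgeR, adjusted over all genes). The difference was 0.81 for *Sall1* (adjusted p = 0.00134), 1.20 for *Sall3* (adjusted p = 1.33e-05) and 1.06 for *Sall4* (adjusted p = 1.06e-06) on the log2 scale. The difference was called for 37.3% of expressed genes, 98.6% of them positive, with a median of 0.44, so the direction of these members is that of most calls. With TMM *Sall1* was not called (0.34, adjusted p = 0.0582). Both *Etv5*-KO N16h libraries were above all RGd2 N16h libraries for *Sall3* and *Sall4*, which compares N16h only and does not measure the change from 2i.

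*Sall2* differed between *Rbpj*-KO and RGd2 cells in the change from 2i to N16h, by −0.73 (adjusted p = 0.0237), where 4.03% of expressed genes were called. It rose in both genotypes without overlap of the 2i and N16h libraries.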

How the results depend on the processing

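Over 68 differences of single members and 1024 alternative values, 940 kept their direction and their side of the threshold, 47 lost a call, 13 gained one and 24 changed sign. The 940 include each difference without the FPKM minimum. That setting could not change a member, since every member reached 1 FPKM in a compared group. The number of members called in RGd2 2i-p5 against 2i went from 4 to 2 with TMM or gene median-of-ratios size factors. In *Etv5*-KO against RGd2 in 2i it went from 4 to 2 with either scaling or with only the libraries compared, and ranged from 2 to 4 without single replicates. In *Rbpj*-KO against RGd2 it went from 2 to 0 in 2i with only the libraries compared (1 to 2 without single replicates) and from 0 to 2 at N16h with either scaling. In ER-dKO CHp5 against RGd2 2i-p5 it went from 1 to 0 with either scaling, to 3 with only the libraries compared and to 4 with RGd2 2i as control (0 to 1 without single replicates), and for the *Rbpj*-KO difference from 1 to 0 with only the libraries compared (0 to 1 without single replicates). With only the libraries compared the calls of *Sall4* in RGd2 N16h and 2i-p5 against 2i and of *Sall1* in RGd2 N72h against 2i were also lost. The causes were not tested, though fits to only the libraries compared use fewer samples.

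Signs changed with median-of-ratios and TMM factors, respectively, for *Sall1* in *Etv5*-KO N16h against RGd2 (−0.0883 and −0.0869) and in ETR-tKO Np5 against RGd2 N72h (−0.0849 and −0.0534; −0.0292 to 0.168 without single replicates), *Sall2* in ER-dKO CHp5 against RGd2 2i-p5 (−0.0698 and −0.0301), *Sall3* in *Etv5*-KO N16h against 2i (−0.0839 and −0.1266) and *Sall4* in *Rbpj*-KO N16h against RGd2 (−0.0233 and −0.0289). *Sall4* in ER-dKO CHp5 against RGd2 2i-p5 was at −0.0389 with median-of-ratios factors. Without single replicates *Sall4* in *Rbpj*-KO N16h against 2i ranged from −0.0581 to 0.121. With the other RGd2 2i culture as control, chosen after seeing the data, signs changed for *Sall1* at N72h (0.8075), for ER-dKO CHp5 (*Sall1* −0.9478, *Sall2* −0.5285, *Sall3* −1.0512, *Sall4* −0.2952) and for ETR-tKO Np5 (*Sall1* −0.3831, *Sall3* −0.3487, *Sall4* −0.0597). On the FPKM scale 7 conditions for *Sall1* and 9 for *Sall2* kept their rank.

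Counts of called genes moved too. With TMM and median-of-ratios factors, respectively, they went from 6043 to 2953 and 3015 for 2i-p5 against 2i, from 1312 to 2080 and 2148 for *Rbpj*-KO in 2i and from 4564 to 1602 and 1615 for the *Etv5*-KO difference. With only the libraries compared they went from 5402 to 3138 for RGd2 N16h and from 6749 to 4411 for CHp2 against 2i, to 2332 for 2i-p5, from 3937 to 1728 for *Etv5*-KO in 2i, to 635 for *Rbpj*-KO in 2i, from 2605 to 3961 for *Rbpj*-KO at N16h, to 2308 for the *Etv5*-KO difference and from 490 to 232 for the *Rbpj*-KO difference. Without RGd2 2i replicate 33, the shallowest library, they were 2131 for *Rbpj*-KO in 2i, 7206 for the *Etv5*-KO difference and 1505 for the *Rbpj*-KO difference, and without RGd2 2i replicate 31 they were 3345 for 2i-p5, 2737 and 244 for the differences. Without *Etv5*-KO N16h replicate 18 they went from 3817 to 1875 against RGd2, from 4818 to 2936 against 2i and to 2117 for the difference, and without *Etv5*-KO 2i replicate 27 to 3034 for the difference. The *Rbpj*-KO difference had 252 without *Rbpj*-KO 2i replicate 29, 312 without N16h replicate 21 and 321 without RGd2 N16h replicate 24. The replicate block by cell line changed no call of a member other than that of *Sall4* in RGd2 N16h against 2i (−0.27, adjusted p = 0.124). *Sall3* at N72h rests on 9 to 29 counts per library, so its fold is less precise than the others.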
